A study of Mus musculus with 4 samples.

Results

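NF-kB is a family of dimeric transcription factors, and the genes described here encode its subunits and the proteins that hold it in check. The gene list named 5 subunits (Nfkb1, Nfkb2, Rel, Rela and Relb) and 5 inhibitors (Nfkbia, Nfkbib, Nfkbie, Nfkbiz and Tnfaip3). A gene was included where a probe set of the deposited table carried that symbol and no other in the platform annotation. This held for 9 of the 10 genes, each with 1 probe set, out of 19935 genes in all, and Nfkb1 was not analysed here.

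RNA came from Baf3 (Ba/F3), a mouse pro-B cell line that depends on interleukin-3 (IL-3), and was measured on 4 Affymetrix Gene 1.0 ST arrays. Parental Baf3 cells grown with IL-3 gave 1 array. Baf3 cells carrying a doxycycline-inducible BCR-ABL, the fusion kinase of chronic myeloid leukaemia, were kept in doxycycline at 500 ng/ml. In medium lacking IL-3 they gave 2 arrays, A and B. With IL-3 added they gave 1 array. The submitters set out to find genes driven by BCR-ABL and by the growth factor, with imatinib resistance in view. The labels give doxycycline for the BCR-ABL cells only, and do not say whether that line is 1 clone or whether A and B were separate cultures. The p-values below therefore measure only the spread between A and B, which may be technical.

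In resting cells NF-kB dimers are kept in the cytoplasm by IkB proteins, of which Nfkbia, Nfkbib and Nfkbie encode the alpha, beta and epsilon forms. Signals from cytokine, Toll-like and antigen receptors activate the IKK kinase complex, which marks IkB for destruction and lets the dimers enter the nucleus. Several of the genes that NF-kB then switches on encode its own inhibitors and subunits, so that the pathway feeds back on itself.

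The deposited values were taken as log2, a base that no source used here states and on which every fold below rests, and express each array relative to the parental one, which is 0 for every gene by construction. Absolute levels were therefore not analysed, and the presence of pro-B markers could not be checked. Array medians over all genes were 0.0044 (A), -0.077 (B) and 0.0085 (with IL-3). The SD over genes was 0.196 between A and B, and 0.152 and 0.222 between the IL-3 array and A and B. Array B thus had the lowest median, which touches every comparison with it. Of 9 measured pro-B markers 0 were called in either comparison. Relative to the parental array, 2 of the 9 lay above 0 on the mean of A and B and 0 on the IL-3 array. Cd79b and Ptprc were lowest without IL-3, at -0.40 and -0.41. Of 7 macrophage and neutrophil markers Adgre1 was called higher without IL-3 than in parental cells (log2 1.74). Of 4 T cell markers 0 were called. Many markers had dim probe sets, those with signs of a low signal, so their lack of a call carries little weight. These were Ebf1, Rag1 and Il7r (pro-B), Csf1r, Cd14, Lyz2, Mpo and Elane (macrophage and neutrophil), and Cd3g and Cd4 (T cell). On the IL-3 array the medians of these 3 lists were -0.09, 0.04 and 0.02, and their part in the results was not tested.

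The start regions of genes called higher in BCR-ABL cells are shown first, because NF-kB is known to regulate members of its own family through a short DNA element, the kB site. Windows from 250 bases before to 50 bases after the RefSeq gene start (build GRCm38.p6) were matched for 7 of the 10 genes, and Nfkb1, Relb and Nfkbiz had no entry. Capitals mark matches to the NF-kB consensus on either strand. Rela, which was not called, is given beside the called genes Nfkbia, Nfkbie, Nfkb2 (the first of its 3 windows) and Nfkbib.
Nfkbia, chr12:55492598-55492897, minus strand: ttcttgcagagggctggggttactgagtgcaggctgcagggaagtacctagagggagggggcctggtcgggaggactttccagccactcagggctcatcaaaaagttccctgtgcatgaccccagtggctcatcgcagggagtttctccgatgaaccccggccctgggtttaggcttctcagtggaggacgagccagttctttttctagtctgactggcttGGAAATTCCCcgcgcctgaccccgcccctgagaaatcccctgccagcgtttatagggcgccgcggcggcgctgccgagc
Nfkbie, chr17:45555450-45555749, plus strand: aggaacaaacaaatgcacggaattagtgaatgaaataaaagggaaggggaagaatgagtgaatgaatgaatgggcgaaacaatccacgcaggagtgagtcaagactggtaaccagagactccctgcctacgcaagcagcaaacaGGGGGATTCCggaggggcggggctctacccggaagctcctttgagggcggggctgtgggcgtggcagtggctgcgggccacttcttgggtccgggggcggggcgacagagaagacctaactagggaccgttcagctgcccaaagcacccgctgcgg
Nfkb2, chr19:46304487-46304786, plus strand: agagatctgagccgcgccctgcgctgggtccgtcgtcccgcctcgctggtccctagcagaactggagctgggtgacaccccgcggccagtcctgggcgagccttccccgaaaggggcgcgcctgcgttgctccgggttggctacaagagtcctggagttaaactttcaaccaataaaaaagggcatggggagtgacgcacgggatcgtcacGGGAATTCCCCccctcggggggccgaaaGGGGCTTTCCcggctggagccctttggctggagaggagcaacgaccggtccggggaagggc
Nfkbib, chr7:28766595-28766894, minus strand: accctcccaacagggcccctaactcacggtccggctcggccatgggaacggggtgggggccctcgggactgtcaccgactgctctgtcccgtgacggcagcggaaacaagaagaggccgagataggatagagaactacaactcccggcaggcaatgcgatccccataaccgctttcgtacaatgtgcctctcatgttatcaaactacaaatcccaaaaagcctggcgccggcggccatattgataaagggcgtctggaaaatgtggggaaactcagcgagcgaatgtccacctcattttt
Rela, chr19:5637291-5637590, plus strand: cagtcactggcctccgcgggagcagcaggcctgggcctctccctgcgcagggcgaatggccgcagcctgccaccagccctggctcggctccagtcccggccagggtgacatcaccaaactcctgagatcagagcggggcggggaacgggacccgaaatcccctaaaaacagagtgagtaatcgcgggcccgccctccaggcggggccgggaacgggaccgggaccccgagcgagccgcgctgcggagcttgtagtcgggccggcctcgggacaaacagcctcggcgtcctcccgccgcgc

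The consensus was found in 5 of the 7 genes with a window. In Nfkbia the match GGGAATTTCC lies on the opposite strand, from position -29 to -20 relative to the gene start. That exact word stands in 0.0883% of all 32851 windows. It was taken from the Nfkbia window itself, and any single word of 10 letters is rare, so this share lends the site no weight. Nfkbie holds GGGGGATTCC from -106 to -97. The Nfkb2 window printed holds 3 matches, of which GGGAATTCCC and GGGGAATTCC overlap on opposite strands and GGGGCTTTCC lies from -11 to -2. Rel also holds overlapping matches on opposite strands, GGGAAATCCC from -92 to -83 and GGGGATTTCC on the other strand. In Tnfaip3 GGGACACCCC lies from -125 to -116, and GGGGATTTCC lies on the opposite strand from -12 to -3. The consensus was not found in the windows of Nfkbib and Rela. Over all genes with a window, 5.14% hold a match in at least 1 of their windows (4.51% of the windows). The looser pattern GGGNNNNNCC, which contains every match of the consensus, was found in 6 of the 7 genes. Over all genes with a window 53.5% hold it (50.8% of the windows). These are matches of letters and not measured binding. Among the called genes Nfkb2, Nfkbia and Nfkbie held the consensus and Nfkbib did not, while Rel and Tnfaip3 held it and were not called.

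The first comparison set arrays A and B (BCR-ABL, no IL-3, n = 2) beside the parental array (IL-3, n = 1), to see which transcripts differ once the kinase stands in for the growth factor. The 3 classical IkB genes and the subunit gene Nfkb2 were higher in the BCR-ABL cells, each by 1.68-fold to 1.80-fold. Limma called 4 of the 9 measured genes higher and 0 lower, with an adjusted p under 0.05 as the threshold. Over all 19935 genes 5.19% were called higher and 2.87% lower. The median difference was 0.49 (log2) over the 9 genes and -0.04 over all genes. The kinase, doxycycline and the engineered line separate these groups together and cannot be told apart. IL-3 was absent from A and B as well, and its part in this comparison was not tested. On the single BCR-ABL array grown with IL-3 the 4 called genes stood at 0.75 (Nfkb2) to 1.26 (Nfkbia) relative to the parental array.

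**Figure D1:**
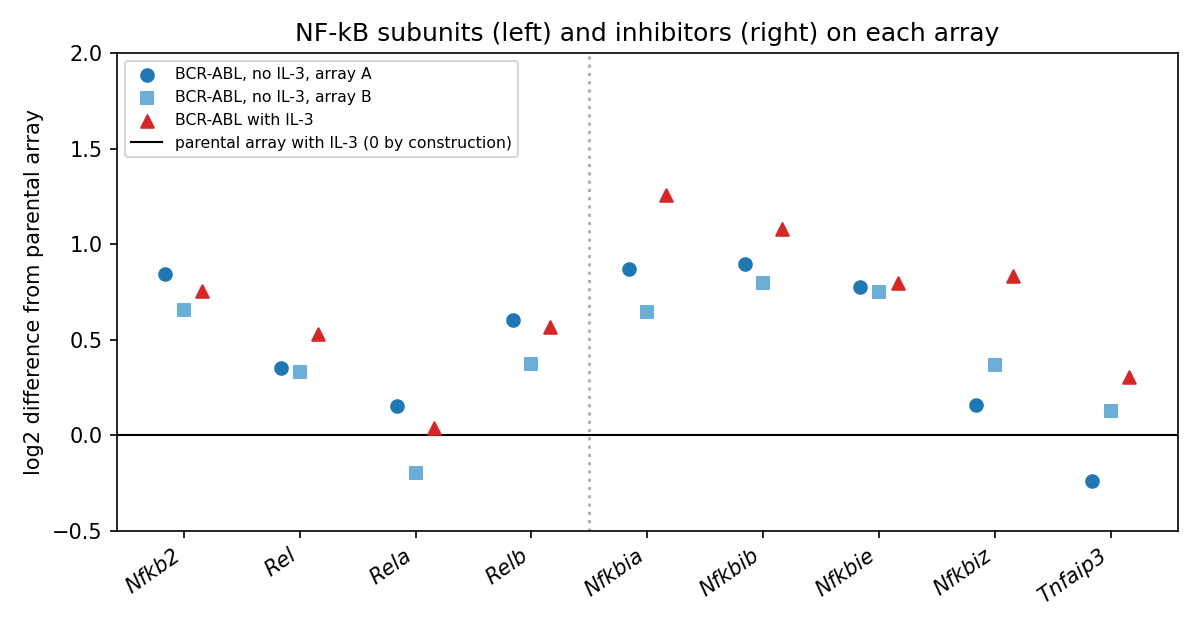
Log2 difference from the parental array (vertical axis) for 4 NF-kB subunit genes and 5 inhibitor genes (horizontal axis) on each BCR-ABL array, with 1 point per array and the parental array as the line at 0. Nfkbia, Nfkbib, Nfkbie and Nfkb2 lie between 0.65 and 1.26 on all 3 arrays, and Rela and Tnfaip3 lie on both sides of 0.

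Among the subunits, Nfkb2 encodes a precursor protein that is cut to a DNA-binding subunit of the alternative NF-kB pathway. Its values were 0.84 on A, 0.66 on B and 0.75 on the IL-3 array, so all 3 BCR-ABL arrays lay well above the parental one. It was 1.68-fold higher without IL-3 than in parental cells (log2 0.75, SE 0.16, limma adjusted p = 0.00475), a difference that 2.52% of all genes matched or exceeded. Relb, the usual partner of the cut Nfkb2 product, stood at 0.60 on A, 0.37 on B and 0.57 with IL-3. All 3 arrays were above the parental one, yet Relb was not called (log2 0.49, 95% interval 0.15 to 0.83, limma adjusted p = 0.0745). It passes at an adjusted p under 0.1.

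Rel encodes c-Rel, a subunit prominent in lymphoid cells. It stood at 0.35 on A, 0.33 on B and 0.53 with IL-3. A and B nearly coincide and lie above the parental array, but at 0.34 (95% interval 0.02 to 0.66) Rel was not called (limma adjusted p = 0.25). Rela encodes the main activating subunit of the classical pathway. Its values of 0.15 on A, -0.20 on B and 0.04 with IL-3 fell on both sides of the parental level. The mean difference was -0.02 (95% interval -0.38 to 0.33) and turned to 0.01 once the arrays were centred on their medians. An increase of Rela as large as that of Nfkb2 lies outside this interval. The interval rests on the spread between A and B, which may be technical, so it cannot exclude such an increase between cultures.

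The inhibitors fell into 2 sets. Nfkbib, which encodes IkB beta, had the largest difference of the 9 genes without IL-3. It stood at 0.90 on A, 0.80 on B and 1.08 with IL-3, and was 1.80-fold higher without IL-3 than in parental cells (log2 0.85, SE 0.15, limma adjusted p = 0.00147). Nfkbia encodes IkB alpha, the fast feedback inhibitor of NF-kB. Its values were 0.87 on A, 0.65 on B and 1.26 with IL-3, which put the IL-3 array highest. The increase without IL-3 was 1.69-fold (log2 0.76, SE 0.16, limma adjusted p = 0.00476). Nfkbie, which encodes IkB epsilon, was the most even of the 3, at 0.77 on A, 0.75 on B and 0.80 with IL-3. It was 1.70-fold higher without IL-3 (log2 0.76, SE 0.15, limma adjusted p = 0.00326). Between 1.88% and 2.46% of all genes had differences as high as these 3 inhibitors.

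The other two inhibitors did not pass in this comparison. Nfkbiz encodes a nuclear IkB protein that works as a co-regulator of selected NF-kB target genes. It stood at 0.16 on A, 0.37 on B and 0.83 with IL-3, so A and B each lay nearer to the parental level than to the IL-3 array. Its difference without IL-3 was 0.26 (95% interval -0.07 to 0.60, limma adjusted p = 0.513). Tnfaip3 encodes A20, a ubiquitin-editing enzyme that shuts off signalling upstream of IKK. It stood at -0.24 on A, 0.12 on B and 0.30 with IL-3. A and B lay on opposite sides of the parental array, and the mean of -0.06 (95% interval -0.42 to 0.30) was not called. Array A alone gives -0.24 and array B alone 0.12.

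By size, 4 of the 9 genes lay at least 1.5-fold above the parental array on both A and B, where 3.18% of all genes lay above and 1.73% below by that much, and these were the 4 called genes. At 2-fold on both arrays there were 0, with 0.903% of all genes above and 0.406% below. Both arrays lay above the parental one, at any distance, for 7 of the 9 genes and below it for 0, with 27.9% of all genes above and 42% below.

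The second comparison set the BCR-ABL array with IL-3 (n = 1) beside A and B (n = 2), to see what IL-3 changes in cells that already express the kinase. Of the 9 genes 0 were called by limma, as over all genes, where 0.00502% were called higher and 0% lower. At an unadjusted p under 0.05 there were 3, Nfkbiz, Nfkbia and Tnfaip3, all higher with IL-3, against 1.52% of all genes higher and 3% lower at that level. At least 1.5-fold from both A and B there were 0, against 0.0752% of all genes higher and 0.0401% lower. All 9 differences were above 0, with a median of 0.19 (log2) beside 0.03 over all genes. Nfkb2 was the lowest of them at 0.0043, and 59.4% of all genes were at least that high. With arrays centred on their medians the 9 genes had a median of 0.14, and Nfkb2 and Nfkbie turned to -0.04 and -0.01. A and B enter both comparisons, so the values of the first and second are not independent of each other.

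**Figure D2:**
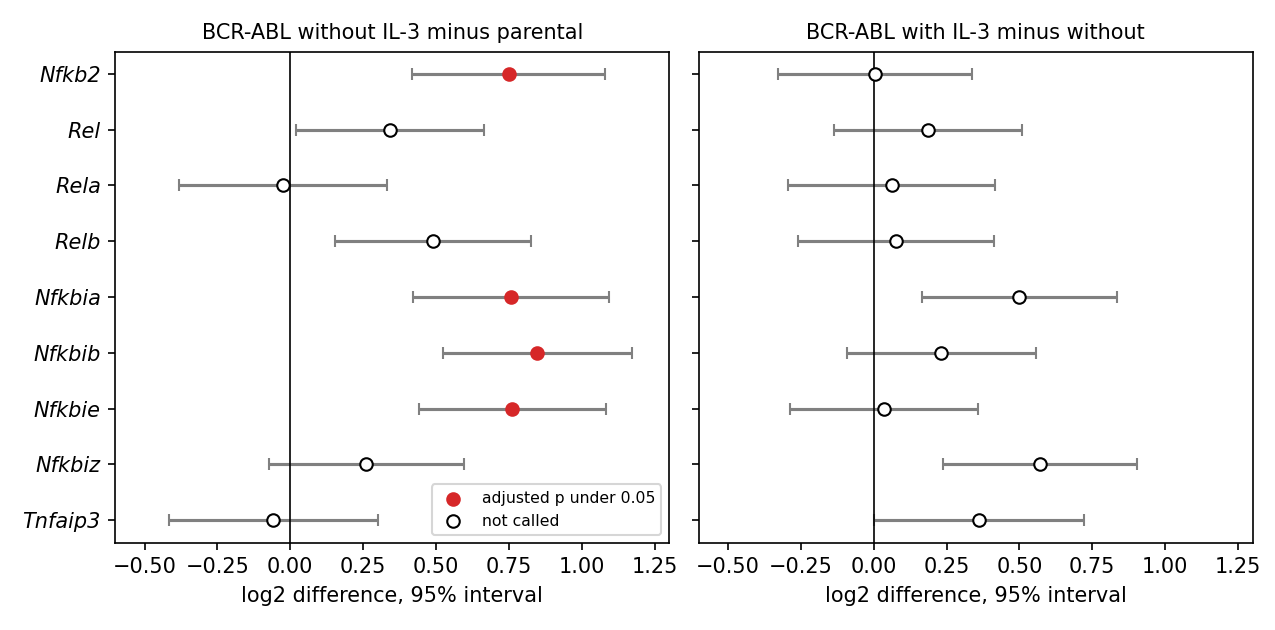
Log2 differences (horizontal axes) with 95% intervals from limma for the 9 genes (vertical axis), for BCR-ABL cells without IL-3 against parental cells (left) and for BCR-ABL cells with against without IL-3 (right). Filled points passed an adjusted p under 0.05, which held for 4 genes on the left and 0 on the right, where Nfkbiz, Nfkbia and Tnfaip3 have intervals above 0 before adjustment.

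Nfkbiz had the widest difference with IL-3. The IL-3 array lay 0.68 above A and 0.47 above B, and the mean difference of 0.57 (1.49-fold, 95% interval 0.24 to 0.90) was not called (limma adjusted p = 0.478). By the size of this increase Nfkbiz ranked 47 of 19935 genes. Nfkbia lay 0.39 above A and 0.61 above B with IL-3. Its mean difference of 0.50 (1.41-fold, 95% interval 0.16 to 0.84, limma adjusted p = 0.716) ranked 64 and was not called. For Tnfaip3 the IL-3 array was 0.55 above A but 0.18 above B, a mean of 0.36 (95% interval 0.0027 to 0.72, limma adjusted p = 1.00). The gap between A and B in Tnfaip3, 0.37, was as wide as that mean difference.

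For the remaining genes the mean difference was smaller. Nfkbib differed by 0.23 (95% interval -0.09 to 0.56) and Rel by 0.19 (95% interval -0.14 to 0.51), and neither was called. In both genes the IL-3 array lay above A and B by more than the gap between A and B, which was 0.098 for Nfkbib and 0.019 for Rel. Relb, Rela and Nfkbie differed by 0.08, 0.06 and 0.03, and Nfkb2 by 0.00 (95% interval -0.33 to 0.34). The intervals leave room for changes of about 0.33 in either direction for Nfkb2, so these data do not show that IL-3 leaves it alone. The IL-3 array lay above both A and B for 6 of the 9 genes, between them for Nfkb2, Rela and Relb, and below both for 0, against 39.9% above and 25.5% below over all genes.

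Set against the parental array, the BCR-ABL array with IL-3 is a comparison of 1 array with 1 array, in which both cultures had IL-3, and it is given without p-values. All 9 genes were above 0, against 52.6% of all genes above 0 and 47.4% below. Nfkbia was 2.39-fold, Nfkbib 2.11-fold, Nfkbiz 1.78-fold, Nfkbie 1.74-fold and Nfkb2 1.69-fold higher than on the parental array. These 5 genes exceeded 1.5-fold, where 3.3% of all genes were higher and 2.53% lower by that much, with Relb just short of it at 1.48-fold (log2 0.57). Nfkbia and Nfkbib also exceeded 2-fold, where 1.1% of all genes were higher and 0.517% lower. The value of Nfkbia was matched or exceeded by 0.702% of all genes on this array. This comparison shares the parental array with the first, and its difference from the first is what the second comparison tested.

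From lowest to highest on the IL-3 array the order was Rela, Tnfaip3, Rel, Relb, Nfkb2, Nfkbie, Nfkbiz, Nfkbib and Nfkbia. On the mean of A and B it was Tnfaip3, Rela, Nfkbiz, Rel, Relb, Nfkb2, Nfkbia, Nfkbie and Nfkbib. Nfkb2, Nfkbia and Nfkbie differ there by at most 0.013, less than the gap between A and B in each, and cannot be put in order. Over the 3 BCR-ABL arrays the closest pair of profiles was Nfkb2 and Nfkbie, at a Euclidean distance of 0.125 (log2), followed by Nfkbia and Nfkbib at 0.236 and Rel and Relb at 0.259. Outside the family, the genes with profiles most like Nfkbib, the gene with the largest difference on the mean of A and B, were Gbp5, Tpgs2, Gbp4, Pgs1 and Edem1. Their distances over 3 arrays ran from 0.0902 to 0.115 among 17222 genes ranked. Gbp5 stood at 0.89 on A, 0.86 on B and 1.01 with IL-3.

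Other genes of the pathway mostly lay nearer to the parental level. Leaving out target genes, 52 such genes stood on 4 lists and 46 were measured. In the first comparison 3 of the 46 were called higher (6.52%, beside 5.19% of all genes) and 0 lower (2.87% of all genes), with a median of 0.04 (log2). The share called higher is thus near that of all genes. In the second comparison 0 were called. Of 5 other IkB-like proteins and Rela binders 0 were called and the median was -0.03. Nfkbid, a nuclear IkB protein like that of Nfkbiz, stood at 0.67 on A, 0.31 on B and 0.31 with IL-3 and did not pass (limma adjusted p = 0.0979). Bcl3, which binds NF-kB in the nucleus, was at -0.12, and Nkiras2, whose product restrains IkB breakdown, at -0.04.

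Of 10 measured genes of the IKK complex, the kinases above it and their adaptors 0 were called, with a median of -0.04 in the first comparison. Map3k14 encodes NIK, the kinase that triggers cutting of the Nfkb2 precursor. It stood at 0.54 on A, 0.43 on B and 0.29 with IL-3 and did not pass (limma adjusted p = 0.0643). Ikbkg, the regulatory subunit of IKK, was at -0.33 without IL-3, and Tab2, an adaptor of the kinase TAK1, at 0.28, and neither passed. Of 18 receptors and adaptors 2 were called higher and 0 lower, counts too small to set apart from the 5.19% of all genes, with a median of 0.02 (-0.0037 without dim probe sets, those with signs of a low signal). The adaptor gene Traf1 was higher by 0.56 (limma adjusted p = 0.0418). The endotoxin receptor gene Tlr4 was higher by 0.73 (limma adjusted p = 0.0344), but A and B differed widely in it, at 0.40 and 1.06. Tlr4 has a dim probe set and was left out of the fit without them. With arrays centred on their medians neither gene passed (adjusted p = 0.0741 for Traf1 and 0.251 for Tlr4), nor did Tlr4 with robust empirical Bayes (adjusted p = 0.248). Tnfrsf1b, a receptor of tumour necrosis factor, was at 0.37 and did not pass.

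Of 13 ubiquitin enzymes and A20 partners 1 was called higher and 0 lower, again near the share of all genes, with a median of 0.07 (0.019 without array A). The called gene was Ube2n, a ubiquitin-conjugating enzyme used in signalling to IKK, at 0.56 on A, 0.81 on B and 0.23 with IL-3 (limma adjusted p = 0.0109 in the first comparison, and 0.0761 after centring). It lay lower with IL-3 than on either array without it, and that difference of -0.45 was not called (limma adjusted p = 0.824). Rnf31 and Tax1bp1 did not pass, at 0.20 and 0.39.

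Of 22 genes known as NF-kB targets 9 were called higher and 0 lower without IL-3, beside 5.19% and 2.87% of all genes, with a median of 0.32 (0.58 without dim probe sets). The chemokine genes Ccl3, Cxcl10 and Ccl5 were 13.9-fold, 3.34-fold and 2.99-fold higher, and the cytokine genes Tnf and Il6 5.81-fold and 1.76-fold. The survival gene Bcl2l1, the superoxide dismutase Sod2, the adhesion molecule Icam1 and the stress gene Gadd45b were higher by 0.98, 0.72, 0.59 and 0.58 (log2). Many of these genes also answer to other pathways, and the list was chosen with results of these data known. The differences of Ccl3 and Tnf were far wider than those of the IkB genes. With IL-3 against without, 0 of the 22 were called and the median was 0.08 (0.15 without array A, 0.041 without array B and 0.031 after centring).

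**Figure D3:**
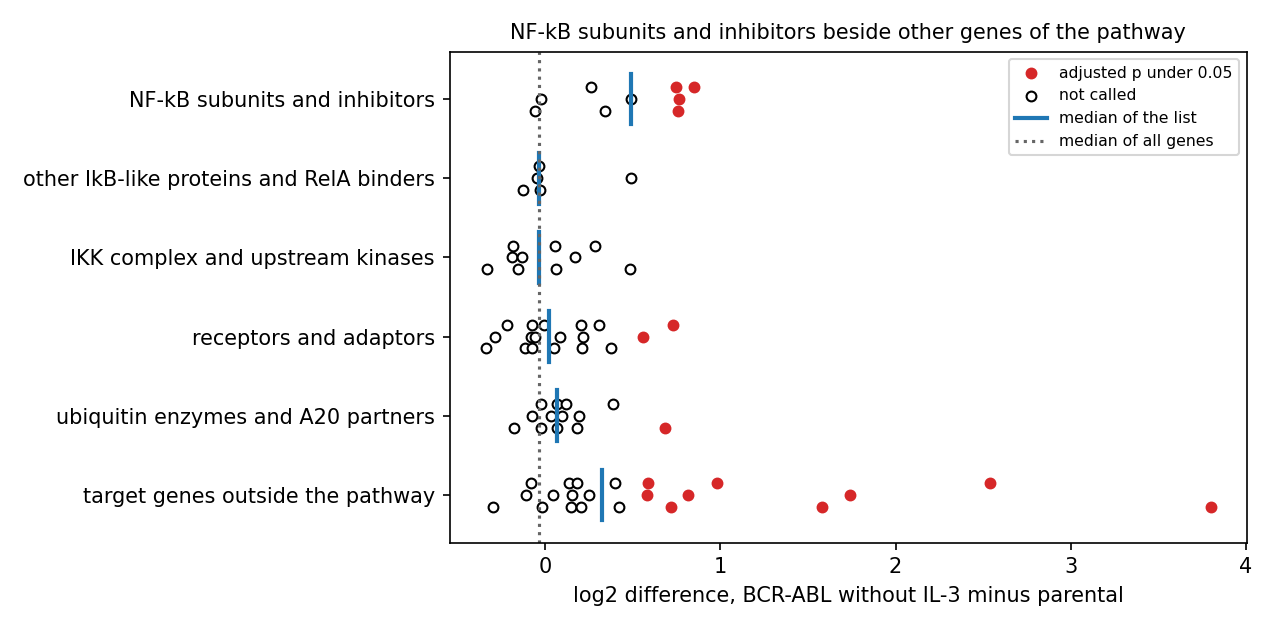
Log2 difference between BCR-ABL cells without IL-3 and parental cells (horizontal axis) for each measured gene of 6 lists (vertical axis), with filled points for an adjusted p under 0.05, bars for list medians and a dotted line for the median of all genes. The median of the 9 NF-kB subunits and inhibitors is 0.49 and that of the target genes 0.32, while the other 4 lists have medians between -0.04 and 0.07.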

How the data were processed

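The 4 arrays were compared from the deposited series table. The deposited values are log2 differences: in the table the parental column is 0 for all 28815 probe sets. The authors' background correction, normalization, probe summary and logarithm are not given in the sources used here. Base 2, the usual scale of such arrays, was assumed. Of 86431 nonzero values 99.8% fall on whole multiples of 2 to the power -21 within printed or single precision, which is how finely numbers between 4 and 8 are stored. This bears on the size of the stored numbers and not on the base, and natural logarithms would give larger folds. Probe sets with odd multiples (11029) are called dim; 0 of the 9 genes had one.

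The platform annotation gave 1 symbol for 21780 probe sets, several for 1605, and did not list 5430. Probe sets of 1 symbol were averaged per gene (998 genes had several). Limma 3.58.1 (R 4.3.3) fitted 3 group means to all 4 arrays without a filter. Its 1 residual degree of freedom is A against B, whose spread was also used for the single arrays (prior of 16.4 degrees of freedom, prior SD 0.128). The two-sided p-values were adjusted over 19935 genes (Benjamini-Hochberg). The code was run on simulated data whose noise was drawn from the fitted prior, alike on every array. That run cannot show whether the spread of A and B holds for the single arrays. The number of arrays limits the precision. Alternatives were centring, another use of probe sets, leaving out dim probe sets, fits of 2 groups, robust empirical Bayes, a threshold of 0.1, a 2-fold size and leaving out A or B.

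The genes, lists and tests were chosen with earlier results of these data known. Named genes were the members, the called genes of each list (or, to make 3, those with the widest difference), and the 5 genes nearest in profile to the member with the widest difference, without predicted genes, olfactory receptors and small RNAs. Promoter windows are from RefSeq.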

Additional observations from a re-analysis of the deposited data

How the results depend on the processing

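The 4 calls among the 9 genes (Nfkb2, Nfkbia, Nfkbib and Nfkbie) were also made after centring (limma adjusted p between 0.0181 and 0.0299) and with robust empirical Bayes. The other settings of the fit were little or no test of these calls. Each of the 9 genes had 1 probe set, which was not dim, so leaving out probe sets did not change its values. The fits of 2 groups gave the same p-values. A threshold of 0.1 can only keep calls, and Relb joined them there. Of 135 alternative values for single genes 8 reversed, in differences that were not called. Many of the 135 could not move. Leaving out probe sets, fits of 2 groups and robust empirical Bayes keep the differences of these genes as they are. Only centring and leaving out A or B could shift them. Centring turned Nfkb2 to -0.040 and Nfkbie to -0.0099 with against without IL-3, and Rela to 0.012 against the parental array. Leaving out A or B gave a range of -0.089 to 0.098 for Nfkb2, -0.11 to 0.24 for Rela and -0.038 to 0.19 for Relb in the second comparison. In the first, the range was -0.20 to 0.15 for Rela and -0.24 to 0.12 for Tnfaip3.

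Over all genes, centring lowered the calls of the first comparison from 1035 to 637 higher and from 572 to 299 lower. In the second it lowered the higher calls from 1 to 0, and they were 2 at a threshold of 0.1 and 2 without the widest probe set of a gene. Requiring 2-fold in place of 1.5-fold gave 180 higher and 81 lower genes in the first comparison (0 of the 9), 1 and 0 in the second, and 219 and 103 (2 of the 9) for the IL-3 array against the parental one. Without array A or without array B, the 1.5-fold counts ranged from 788 to 1039 higher in the first comparison. In the second they ranged from 62 to 70 higher and from 34 to 235 lower, with 1 of the 9 higher in each case (Nfkbia without A, Nfkbiz without B). The second comparison's 8 lower genes became 17 after centring and 4 without dim probe sets.

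Among list medians in the first comparison, centring gave 0.0021 for other IkB-like proteins, -1.17e-05 for the IKK list and 0.059 for receptors and adaptors. Leaving out dim probe sets gave -0.0037 for receptors and 0.58 for targets. In the second, centring gave 0.14 for the 9 genes, -0.0015 for receptors and -0.031 for ubiquitin enzymes. Leaving out A or B gave medians of -0.084 to 0.017 for other IkB-like proteins and -0.060 to -0.037 for the IKK list in the first comparison. In the second it gave -0.027 to 0.070, -0.035 to 0.029 and, for ubiquitin enzymes, 0.025 to 0.035. For receptors it gave 0.010 to 0.033 and 0.014 to 0.062 in the first and second comparison, and for ubiquitin enzymes 0.019 to 0.096 in the first. For the 9 genes it gave 0.37 to 0.60 and 0.18 to 0.20. The cause of these shifts was not tested. No paired analysis was possible because the groups compared share no replicate numbers in the labels.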
